A study of Mus musculus with 3 samples.

Results

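The cytosolic ribosomal protein genes encode the protein parts of the ribosome that translates nuclear messages, Rpl genes for the large subunit, Rps genes for the small subunit, and Rplp genes for the stalk of the large subunit that recruits the elongation factors. They were examined here for peaks of the transcription factor TFAP2A in mouse melanocytes. Members were the protein-coding genes of chr1-19 in the GENCODE mouse vM1 annotation (build mm9) whose symbol is Rpl, Rps or Rplp followed by digits and at most 1 letter. This rule gave 75 of 21418 genes, with 42 Rpl, 3 Rplp and 30 Rps genes, and left 21343 other protein-coding genes for comparison. The rule uses names only and no measured value. It takes in 4 paralogs with an l suffix (Rpl3l, Rpl10l, Rpl39l and Rps27l) and leaves out 9 cytosolic ribosomal protein genes with other names or on the X chromosome, none of which had a summit within 1 kb of a start site in either list. Rpl41 was not analysed here.

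The cells were melan-a, a line of immortalized melanocytes from normal embryonic mouse skin, with the genotype Cdkn2a tm1RDp/tm1RDp, a mutation of a tumour suppressor locus that all samples share, and all come from this 1 line. They were grown with 12-O-tetradecanoylphorbol 13-acetate and cholera toxin and received no further treatment. Chromatin was precipitated with an antibody against AP-2alpha (3B5) in 2 ChIP replicates from independent experiments, and 1 input sample served as the control. There is no second condition and no sample without TFAP2A, so every comparison below is between genes of the same libraries and none is between treatments. The deposited peak lists held 18528 peaks in replicate 1 and 21459 in replicate 2, with median fold enrichments over background of 5.56 and 5.75. The lists give no read counts, so the depth behind a peak is unknown, and a gene without a peak had none that passed the peak caller. The lists hold no expression values, so the cell type label was not checked against marker genes.

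Ribosomal protein genes are among the most strongly transcribed genes of most cells, and their start sites commonly lie in CpG-rich promoters without a TATA box. Their messages typically begin with a C followed by a run of pyrimidines, the 5′ terminal oligopyrimidine tract through which their translation is controlled. TFAP2A binds as a dimer to palindromes of the form GCCNNNGGC and to the looser form GCCNNNGG, and is known for its part in neural crest, melanocyte and keratinocyte development. Mouse mutations in several ribosomal protein genes change coat or skin colour, among them Rpl24 (belly spot and tail), Rps7, Rps19 and Rps20, the latter pair as dark skin mutants.

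The sequences under the peaks that the results turn on are shown first, as 101 bp centred on the summit, the position of highest signal in a peak. They are read from mm9 5′ to 3′ on the strand of the gene, and capitals mark each match to GCCNNNGG on either strand, with overlapping matches run together. They were chosen because they show the upstream peaks with and without such a match, the peaks inside gene bodies, and the peak upstream of Rpl13.
Rpl10a, summit, replicate 1, chr17:28465002-28465102, plus strand: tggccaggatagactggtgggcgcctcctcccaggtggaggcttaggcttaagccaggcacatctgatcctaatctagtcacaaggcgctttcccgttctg
Rpl10a, summit, replicate 2, chr17:28464951-28465051, plus strand: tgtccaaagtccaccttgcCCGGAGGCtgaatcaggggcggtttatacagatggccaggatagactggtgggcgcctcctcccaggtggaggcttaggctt
Rps3a, summit, replicate 1, chr3:85946765-85946865, minus strand: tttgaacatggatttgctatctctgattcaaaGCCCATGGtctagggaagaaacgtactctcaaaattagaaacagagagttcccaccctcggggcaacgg
Rps27a, summit, replicate 1, chr11:29448292-29448392, minus strand: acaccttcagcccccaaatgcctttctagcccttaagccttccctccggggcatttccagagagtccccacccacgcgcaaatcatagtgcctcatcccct
Rpl7, summit, replicate 1, chr1:16094810-16094910, minus strand: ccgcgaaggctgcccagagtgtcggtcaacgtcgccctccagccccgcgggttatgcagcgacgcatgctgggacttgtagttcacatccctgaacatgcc
Rpl8, summit, replicate 1, chr15:76735220-76735320, plus strand: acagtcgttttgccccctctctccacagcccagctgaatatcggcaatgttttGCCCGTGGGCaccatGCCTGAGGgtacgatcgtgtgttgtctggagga
Rpl24, summit, replicate 1, chr16:55974911-55975011, plus strand: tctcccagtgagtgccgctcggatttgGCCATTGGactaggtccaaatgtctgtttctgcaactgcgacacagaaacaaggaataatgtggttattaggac
Rpl13, summit, replicate 1, chr8:125624395-125624495, plus strand: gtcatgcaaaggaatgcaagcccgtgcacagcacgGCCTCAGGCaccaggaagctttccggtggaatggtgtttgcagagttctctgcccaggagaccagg

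In the windows shown, the replicate 1 summits of Rps27a and Rpl7, and that of Rpl10a, held no GCCNNNGG on either strand. The replicate 2 summit of Rpl10a, 51 bp away, held 1 match, as did both of the strongest summits of Rpl24. The replicate 1 summit of Rps3a held 1 match and its replicate 2 summit none. Rpl8 held 3 overlapping or adjacent matches in its coding sequence. Of the windows shown, that of Rpl13 alone held the full palindrome GCCNNNGGC.

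Few ribosomal protein genes had a TFAP2A peak at a start site, and their share was near that of protein-coding genes in general. A summit lay within 1 kb of an annotated transcription start site (TSS) of 9 of 75 members in replicate 1 (12%, exact Clopper-Pearson 95% interval 5.64 to 21.6), beside 14.5% of all protein-coding genes. In replicate 2 it was again 9 of 75, beside 16.5% of all genes. Both lists had a summit within 1 kb for 8 members (10.7%, interval 4.72 to 19.9), beside 13.2% of all genes, which lies inside the interval. These intervals cover counting error over genes and not variation between cultures. The 8 members were Rpl24, Rpl10a, Rpl8 and Rpl7 of the large subunit and Rps27a, Rps3a, Rps15 and Rps21 of the small subunit. That is 4 of 42 Rpl genes (9.52%), 4 of 30 Rps genes (13.3%) and none of the 3 stalk genes. Rpl11 had a summit in replicate 1 alone and Rps7 in replicate 2 alone, and the other 65 members had none within 1 kb in either list.

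Rpl24 met the rule through internal start sites of its gene model, far from its 5′ end. The gene model in vM1 spans 42.6 kb, and the start site nearest to its strongest summit lies 7.61 kb downstream of the model's 5′ end. The NCBI gene table, which is of another build (GRCm38.p6) and was used for names and neighbours alone, lists Zbtb11, a gene for a zinc finger protein, directly after Rpl24, and vM1 has no gene of that symbol. The internal start sites and their peaks may therefore belong to Zbtb11, and with this annotation the genes cannot be told apart. Counted from the 5′ end of the gene model, the strongest summits of Rpl24 lay 8573 bp and 8558 bp downstream. Without these internal start sites 7 members had a summit of both lists within 1 kb (9.33%, interval 3.84 to 18.3). Counting every gene from its 5′ end alone gave the same 7 of 75 members, beside 11.0% of all genes. Most values that rest on its peaks are therefore given with and without Rpl24.

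A wider window, reaching 5 kb upstream and 1 kb downstream of each start site, added 1 gene. In it, 10 of 75 members had a summit in replicate 1 (13.3%), beside 19.0% of all genes, and 10 of 75 in replicate 2, beside 21.4%. Both lists had a summit in this window for 9 members (12%, interval 5.64 to 21.6), beside 17.5% of all genes. The gene added was Rpl13, which encodes a large subunit protein. Its summits lay 1805 bp and 1822 bp upstream of its start site, where they fell in an intron annotated to Gm20388, a model that overlaps Rpl13, and their fold enrichment was 8.38 in replicate 1 and 7.60 in replicate 2. With Rpl24 counted from its 5′ end the wide window held 8 members.

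**Figure D1:**
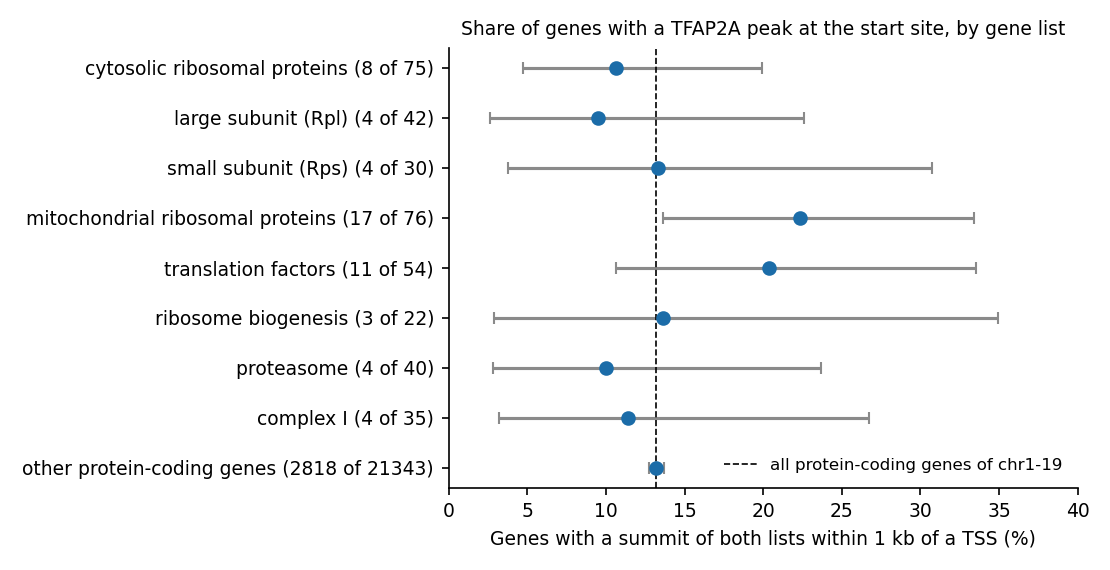
Share of genes with a TFAP2A summit of both replicate lists within 1 kb of an annotated start site (x axis, percent) for each gene list (y axis, with counts); points are shares, bars are exact 95% intervals for counting error over genes, and the dashed line is the 13.2% of all protein-coding genes of chr1-19. The cytosolic ribosomal protein genes sit at 10.7% with an interval that spans the line, and the mitochondrial ones at 22.4%. Without the internal start sites of Rpl24 the former share is 9.33%, which is not drawn.

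Other lists of translation genes and of large complexes were counted in the same way. Of the 76 genes for mitochondrial ribosomal proteins, which translate the messages of the mitochondrial genome, 17 had a summit of both lists within 1 kb (22.4%, interval 13.6 to 33.4). Of 54 translation factor genes it was 11 (20.4%, interval 10.6 to 33.5), and 10 of 50 (20%) without the 4 argonaute genes that share the Eif2c symbol. The ribosome biogenesis list had 3 of 22 (13.6%), namely Rrp9, Ubtf and Npm1. The proteasome subunits had 4 of 40 (10%) and the complex I subunits 4 of 35 (11.4%). The share of the cytosolic ribosomal proteins lay below the interval of the mitochondrial ribosomal proteins and inside those of the other lists. For the translation factors this was narrow, at 10.67% beside a lower bound of 10.63. Without the internal start sites of Rpl24 the share of 9.33% lay below that bound, and below the 10.0 of the 50 genes without argonautes. No test of these differences was made.

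Most of the ribosomal protein peaks were weak beside those at other start sites. Rpl10a, a large subunit protein gene, had the strongest peak at a gene's own 5′ end, with a fold enrichment of 6.22 in replicate 1 and 4.98 in replicate 2 (5.60 ± 0.876, SD, n = 2). Rps27a, which encodes ubiquitin fused to a small subunit protein, followed with 4.82 and 4.35. These peaks of Rpl10a and Rps27a were above the median of other bound start sites in replicate 1 and below it in replicate 2.

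The peaks of the other members were weaker, apart from that of Rpl24. Rps3a, for a small subunit protein, had 3.76 and 3.75, and Rps15, whose protein sits in the head of the small subunit, had 3.60 and 3.51. Rpl7 had 2.77 and 3.40. The values of Rps3a, Rps15 and Rpl7 are all below the median of other bound start sites in their list. Rpl8, for a core protein near the peptidyl transferase centre, had 2.81 and 3.30, and Rps21 had 2.71 and 3.33. Rpl24 at its internal start site had 8.36 and 8.61 (8.49 ± 0.177, SD, n = 2), the highest of the 8 in each list, and a weaker peak of 3.70 and 5.00 nearer to that start, 16 bp and 128 bp downstream in the annotated UTR. That weaker peak is not among the sequences shown, and its replicate 2 summit held the full palindrome as well.

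**Figure D2:**
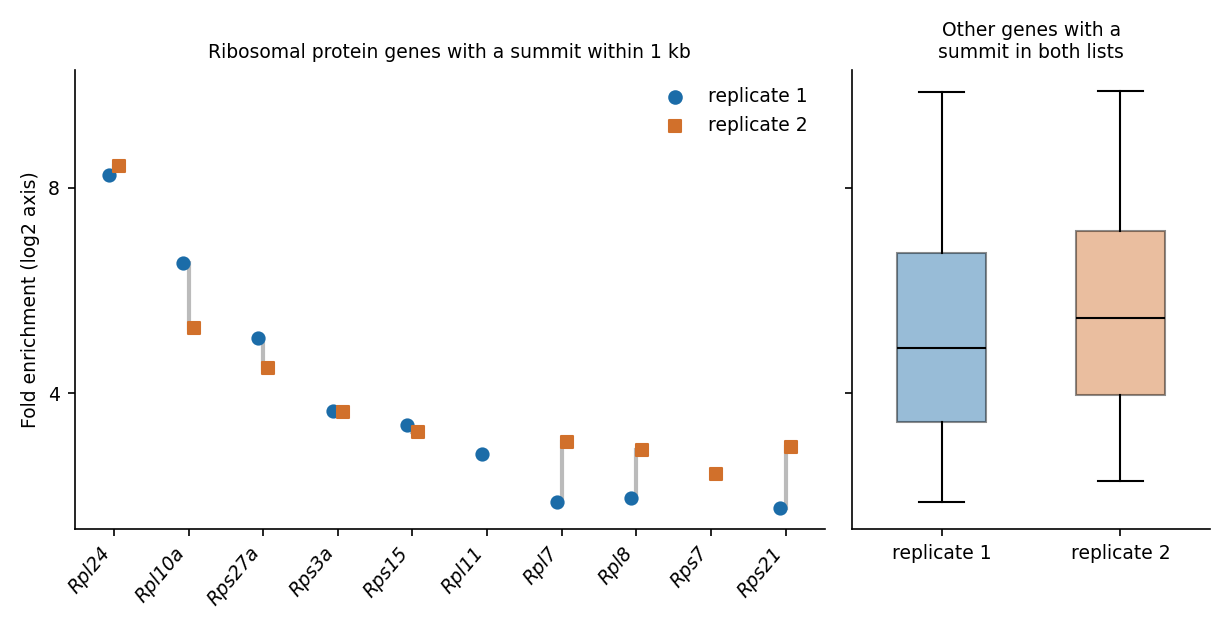
Fold enrichment over background (log2 axis) of the strongest TFAP2A peak within 1 kb of a start site; left, each ribosomal protein gene with such a peak, with circles for replicate 1 and squares for replicate 2; right, other genes with a summit in both lists, as boxes of median and quartiles with whiskers from the 5th to the 95th percentile. Rpl24, at an internal start site, is the highest in each replicate, and Rpl11 and Rps7 have a point in 1 replicate each.

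The median over the 8 genes was 3.68 in replicate 1 and 3.63 in replicate 2 (3.66 ± 0.0346, SD of the list medians, n = 2). Over 2818 other genes with a summit of both lists within 1 kb it was 4.66 and 5.15 (4.90 ± 0.344). The members' median was lower in each list. The SDs measure how well the lists repeat each other, not the spread of a median over 8 genes. Without Rpl24 the members' medians were 3.60 and 3.51. Medians of like size or lower were found for the bound ribosome biogenesis genes (3.09 and 3.46) and complex I genes (3.66 and 3.58). They were higher for mitochondrial ribosomal protein genes (4.07 and 4.61), translation factor genes (4.65 and 5.18) and proteasome genes (4.78 and 5.01). Quartiles of the groups overlapped, at 2.80 to 5.17 for the members (2.79 to 4.29 without Rpl24) and 3.63 to 6.41 for the others in replicate 1. With the others split into 3 groups of like size by mean enrichment, 5 members fell in the lowest, 2 in the middle and 1, Rpl24, in the highest. Ranked among all peaks of a list, the members' median stood at the 16.4th percentile in replicate 1 and the 12.5th in replicate 2 (14.8 and 10.6 without Rpl24), beside 35.3 and 40.1 for other bound start sites.

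When the lists were restricted to the upper 50% of peaks by enrichment, 1 of 75 members kept a summit of both lists within 1 kb (1.33%, interval 0.0338 to 7.21), beside 3.99% of all genes. That member was Rpl24, and Rpl13 was the gene that stayed in the wide window with it. The members' peaks were 341.5 bp wide at the median in replicate 1 and 367.5 bp in replicate 2 (322 bp and 346 bp without Rpl24), beside 432 bp and 386 bp for other start sites.

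Rpl11 and Rps7 had peaks that passed in 1 list. Rpl11, whose protein binds the p53 regulator MDM2, had 3.26 in replicate 1 at 68 bp upstream of an internal start site. This summit lies in an intron, 270 bp downstream of the gene's 5′ end. Its nearest summit in replicate 2 lay 64.1 kb away. Rps7, a small subunit gene with a pigmentation mutant, had 3.04 in replicate 2 at 293 bp downstream of its start site. Its nearest summit in replicate 1 lay 22.2 kb away. These enrichments were at the 9.15th and 4.49th percentile of their lists, while their −log10 q, 11.6 for Rpl11 and 8.61 for Rps7, was well above the lowest deposited value of 2.64. A peak just under the threshold in the other list cannot be told apart from no peak.

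Summits of the ribosomal protein genes lay mostly upstream of the start site and not on it. The summit of Rpl10a was 364 bp upstream in replicate 1 and 415 bp upstream in replicate 2. Rps21 had its summits at 238 bp and 270 bp upstream, Rps27a at 233 bp and 241 bp, and Rps3a at 191 bp and 128 bp. Rps15 had them at 151 bp and 129 bp upstream and Rpl7 at 117 bp and 106 bp upstream. Thus 6 of 8 members had summits upstream in both lists (75%), and 6 of 7 without Rpl24 (85.7%, interval 42.1 to 99.6), beside 52.9% of the other genes. Rpl8 was the gene with its summit downstream of its own start, 769 bp into the gene and in coding sequence in both lists.

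No member had its summit within 100 bp of a start site in both lists, while 656 of 2818 other genes did (23.3%). Between 100 and 300 bp upstream in both lists were 5 of 8 members (62.5%), or 5 of 7 without Rpl24 (71.4%, interval 29.0 to 96.3), beside 16.9% of the others. These bounds were set with the members' positions known, so they describe the 8 genes and support nothing further. The absolute distance to the start site was similar, with medians of 235.5 bp and 255.5 bp for members (233 bp and 241 bp without Rpl24) and 227 bp and 228.5 bp for others. Summits of the lists were 18.5 bp apart at the median over members (22 bp without Rpl24) and 24 bp over others.

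**Figure D3:**
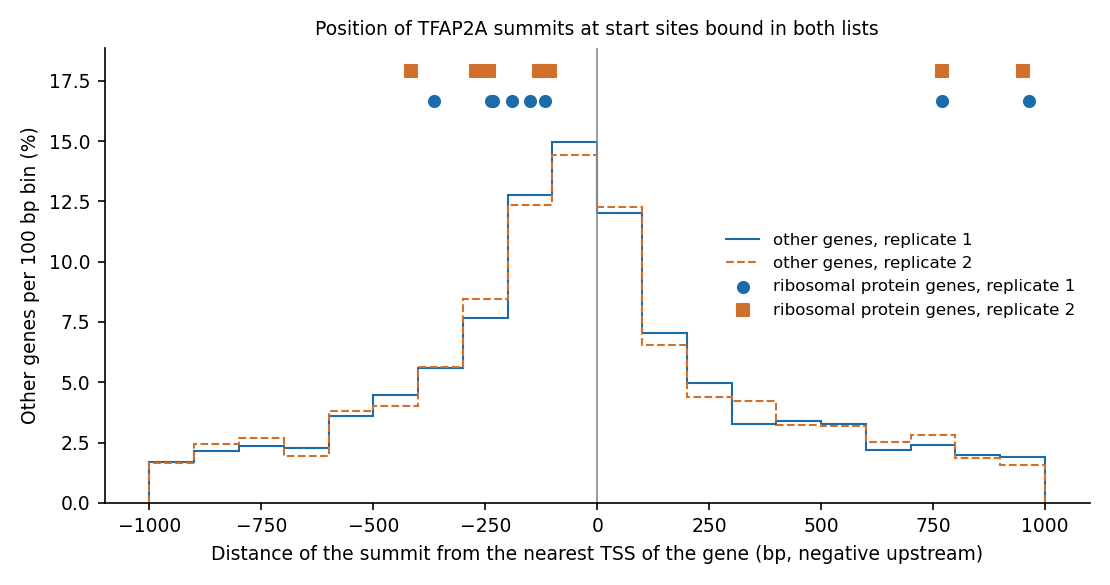
Distance of the TFAP2A summit from the nearest annotated start site of the gene (x axis, bp, negative upstream); steps give the percent of other genes per 100 bp (y axis) for each replicate, and the marks in the upper rows, which have no height on the axis, give the 8 ribosomal protein genes. Marks of 6 genes lie from 415 bp to 106 bp upstream, while the steps peak at the start site.

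Neighbouring start sites were checked, since some ribosomal protein genes share a promoter region with a gene on the other strand. All 20 member peaks within 1 kb, 10 in each list, were nearer to a start site of the member than to that of any other protein-coding gene in vM1. This says nothing of the 4 peaks at Rpl24, since Zbtb11 has no start site in vM1 to compare with. The summits of Rps27a lay in an intron of the divergent gene 1700034F02Rik, 392 bp and 400 bp from its start. The summits of Rpl7 lay 995 bp and 1006 bp from the start of Rdh10, a retinol dehydrogenase gene. A divergent start site within 1 kb was annotated for 13 members, of which 1, Rps27a, had a summit of both lists (7.69%, interval 0.195 to 36.0). Of 2236 other genes with such a neighbour, 23.4% had one. For Rps27a the lists do not tell which of the paired genes a peak belongs to.

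The stalk genes, which form the flexible arm of the large subunit, had no peak near. For Rplp0 the nearest summit was 12.4 kb upstream in replicate 1 and 5.47 kb downstream in replicate 2. For Rplp1 it was 12.9 kb downstream in both, and for Rplp2 9.64 kb and 9.63 kb upstream. Of the genes with pigmentation mutants, Rps19 had its nearest summit 137 kb upstream in replicate 1 and 142 kb downstream in replicate 2. Rps20 had it 39.5 kb upstream in replicate 1 and 2.94 kb downstream in replicate 2. Of the 4 pigmentation genes, then, Rps7 had a peak of 1 list within 1 kb, Rps19 and Rps20 had none, and Rpl24 had peaks of both lists at internal start sites alone, which may be those of Zbtb11.

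Rpl38, whose tail-short mutant has skeletal defects, had its nearest summit 11.2 kb downstream in replicate 1 and 26.0 kb downstream in replicate 2. Rpl5 and Rpl23, whose proteins bind MDM2 as that of Rpl11 does, had their nearest summits 31.2 kb upstream in both lists for Rpl5, and 22.6 kb and 22.7 kb upstream for Rpl23. The paralogs lay at widely different distances. Rpl3l, a paralog of striated muscle, had a summit 4.85 kb downstream in both lists, and Rps27l, a p53 target, one 5.47 kb and 5.54 kb upstream. Rpl39l had its nearest 196 kb away in both. Rpl10l, a testis paralog, was the member farthest from any summit, at 902 kb and 803 kb.

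In all, 61 of 75 members had no summit of either list within 5 kb. In the single lists, the nearest summit lay within 1 kb for 12% of members in each, beside 14.5% and 16.5% of other genes. It lay from 1 to 5 kb away for 2.67% and 5.33% of members, beside 8.18% and 8.77% of other genes. Most other genes thus had none within 5 kb either. Yet the genes stood in neighbourhoods with peaks at an intermediate distance. The nearest summit of a member was 21.0 kb away at the median in replicate 1 and 19.6 kb in replicate 2, beside 34.3 kb and 28.9 kb for other genes. Between 5 and 20 kb lay the nearest summit of 25 members in each list (33.3%), beside 16.9% and 17.4% of the others. Over 100 kb it was for 9 members (12%) in replicate 1 and 6 (8%) in replicate 2, beside 26.4% and 23.8% of the others. Such low shares over 100 kb were found in each of the comparison lists as well, from 8.57% in complex I to 11.1% in translation factor genes in replicate 1. Ribosome biogenesis genes also had 27.3% and 31.8% between 5 and 20 kb. The 6 over 100 kb in both lists were Rps19, Rps23, Rpl39l, Rps12, Rpl21 and Rpl10l.

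For Rpl22, Rpl35a and Rpl37a the distance passed 100 kb in replicate 1 alone. Among the other lists the median in replicate 1 ran from 20.7 kb for mitochondrial ribosomal protein genes to 33.7 kb for proteasome genes. For 46 of 75 members the signed distances to the nearest summit in the lists agreed to within 100 bp. The same share was not counted for other genes.

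**Figure D4:**
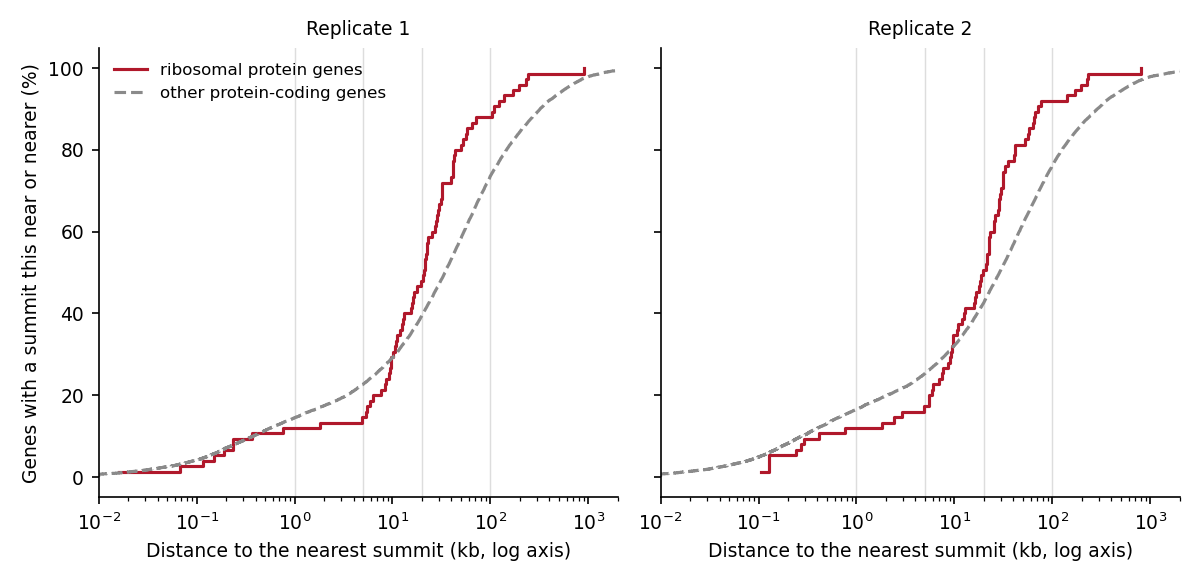
Cumulative percent of genes (y axis) whose nearest TFAP2A summit lies within a given distance of an annotated start site (x axis, kb, log axis), for replicate 1 (left) and replicate 2 (right); the solid line is the 75 ribosomal protein genes and the dashed line the other protein-coding genes. At 5 kb the solid line is below the dashed one in both panels, and at 20 kb it is above.

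The sequence motif of TFAP2A was less frequent at the members' summits than at other start sites, though 8 peaks resolve the difference poorly. Within 50 bp of the summit, GCCNNNGG was present on either strand at 3 of 8 member peaks in replicate 1 (37.5%, interval 8.52 to 75.5) and at 5 of 8 in replicate 2 (62.5%, interval 24.5 to 91.5). In equally long windows centred 400 bp away on either side, the mean share for members was 43.75% and 50%. Members thus showed no central excess of the motif in replicate 1 and 1 peak more than the mean of the flanks in replicate 2. Over peaks at other start sites the share was 68.8% of 2552 in replicate 1 and 71.9% of 2554 in replicate 2, with 25.6% and 26.1% in the flanks. The interval of the members held the others' share in both lists.

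The full palindrome GCCNNNGGC, in which every match also holds GCCNNNGG, was at none of the 8 strongest member summits in either list (upper bound of the interval 36.9%), beside 25.4% and 27.4% of the others. Upstream of Rpl13, outside the 1 kb window, both lists had it under a strong peak. Without Rpl24, GCCNNNGG was at 2 of 7 member summits in replicate 1 (28.6%) and 4 of 7 in replicate 2 (57.1%), with 42.9% in the flanks in each list, and the full palindrome was at none. No match says only that these letters are not in the window.

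The promoters themselves were CpG-rich. They were read at the start site nearest to the summit for a gene with a peak, and at the gene's 5′ end otherwise. From 250 bp upstream to 50 bp downstream of the start site, the ratio of observed to expected CpG was at least 0.6 in 63 of 75 members (84%), beside 45.7% of other genes and 75% to 86.4% of the comparison lists. In this class 7 of 63 members had a summit of both lists within 1 kb (11.1%, interval 4.59 to 21.6), beside 20.5% of other genes (interval 19.7 to 21.3). The members' share was lower but their interval reached the others' value. Without Rpl24 it was 6 of 62 (9.68%, interval 3.63 to 19.9), which ends within the others' interval. Rps27a was the member with a peak in the class under 0.6, in which 1 of 12 members (8.33%) and 7.08% of others had one.

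**Figure D5:**
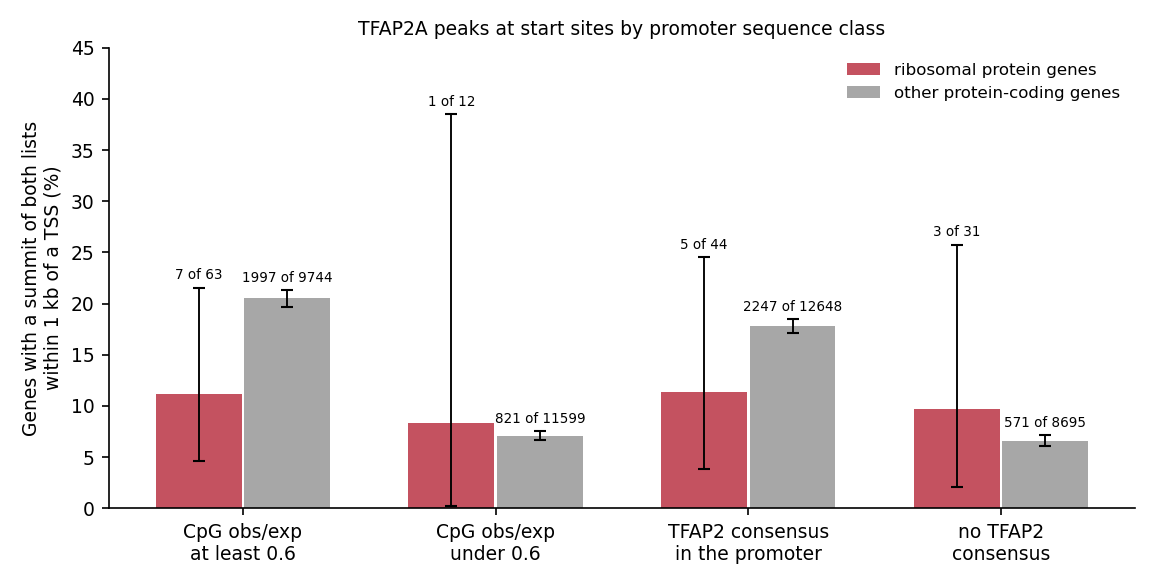
Percent of genes with a TFAP2A summit of both lists within 1 kb of a start site (y axis, from 0) by class of promoter sequence (x axis), for ribosomal protein genes and other protein-coding genes; bars are shares, whiskers exact 95% intervals for counting error, and counts stand above them. In CpG-rich promoters the shares are 11.1% and 20.5%, with a GCCNNNGG match 11.4% (9.30% without Rpl24) and 17.8%, and with no match 9.68% and 6.57%.

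The looser TFAP2 motif was about as common in ribosomal protein promoters as elsewhere, and the full palindrome was less common. GCCNNNGG was in 44 of 75 member promoters (58.7%), beside 59.3% of other genes. GCCNNNGGC was in 6 of 75 (8%), beside 19.2% of other genes, and in the comparison lists from 8.57% of complex I genes to 27.8% of translation factor genes. Among other genes GCCNNNGG was in 79.7% of promoters with a summit of both lists and in 55.1% of those without any. Among members GCCNNNGG was in 62.5% of the 8 with (4 of 7 without Rpl24) and 56.9% of the 65 without. The start site of the first-named coding transcript was also tried, after seeing the data. It gave 50% of the 8 with and 55.4% of the 65 without, beside 78.0% and 55.5% of other genes. The order among members thus depended on the start site used. In promoters without a match the share with a summit of both lists was 9.68% of 31 members and 6.57% of others. In all, 37 members held a match in the promoter and no summit within 1 kb. Rps20 and Rps12 are shown as examples, from 100 bp upstream to 20 bp downstream of the start site in mm9, with the matches in capitals.
Rps20, promoter, chr4:3762793-3762912, minus strand: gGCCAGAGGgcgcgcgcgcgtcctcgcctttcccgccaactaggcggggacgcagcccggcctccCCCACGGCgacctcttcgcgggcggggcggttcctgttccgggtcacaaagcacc
Rps12, promoter, chr10:23506996-23507115, minus strand: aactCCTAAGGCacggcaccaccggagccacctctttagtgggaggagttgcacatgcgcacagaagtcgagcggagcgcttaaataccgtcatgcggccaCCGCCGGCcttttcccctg

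Rps20 had its nearest summit no closer than 2.94 kb, and Rps12, a small subunit gene, had its nearest 229 kb away in both lists. Promoters of ribosomal protein genes also carried the ETS factor motif CCGGAAG in 24 of 75 cases (32%), beside 10.9% of other genes. The share was 50% in ribosome biogenesis genes, 36.8% in mitochondrial ribosomal protein genes, 30% in proteasome genes, 29.6% in translation factor genes and 11.4% in complex I genes. The motif AAGATGGC of YY1 was in 6.67% of members and 3.37% of others, with 4.55% to 17.1% in the comparison lists, and the SP1 motif GGGCGG in 46.7% and 43.6%. At the 8 member summits neither the ETS nor the YY1 motif was found within 50 bp in either list, and both are rare at other summits too (4.54% for ETS and 0.940% for YY1 in replicate 2), so 8 peaks cannot resolve a difference. The SP1 motif was at 1 member summit in replicate 1 and at 2 in replicate 2 (25%), beside 22.2% and 23.0% of others. All motifs were searched on both strands.

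The start sites used here are those of the annotation. A C at the annotated start followed by 4 pyrimidines, as in the terminal oligopyrimidine tract, was found for 3 of 75 members (4%), Rpl14, Rpl32 and Rps21, beside 2.04% of others. At the start of the first-named coding transcript of each gene, a choice made after seeing the data, the count was 6 members (8%), beside 2.03% of others. Allowing the run to begin anywhere from 5 bp upstream of the start site used here, and to end within 10 bp downstream, gave 18 members (24%), beside 3833 of 21343 others and 12.5% to 31.8% of the comparison lists. At the start site used here the strict form was found in 0% to 9.09% of those lists. The promoter of Rps21, which had a weak peak upstream, is shown from 100 bp upstream to 20 bp downstream of the start site, with the pyrimidines that begin at the start site in capitals.
Rps21, promoter, chr2:179991982-179992101, plus strand: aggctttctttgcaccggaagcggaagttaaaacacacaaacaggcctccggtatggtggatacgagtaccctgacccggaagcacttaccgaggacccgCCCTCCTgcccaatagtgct

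The start site used for most members was thus not at such a tract, and the count moved with the choice of annotated start. The error of the annotated starts, which enters every distance given, was not measured here.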

How the data were processed

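TFAP2A-bound chromatin was sequenced in 2 ChIP replicates of melan-a cells, with 1 input sample that entered through the peak calling alone. The labels name BWA, MACS 1.4.2 and build mm9 without their roles. The layout of the lists, with q-values and summit offsets, is that of a later MACS release, so the caller behind the values was not settled. The authors called and deposited 1 peak list per replicate, not pooled, in which each peak has a ratio (its fold enrichment against background) and its p-value and q-value as −log10. A deposited score, which repeats the −log10 p in rounded form, was not used. The lowest deposited −log10 q was 2.64 in both lists. Reads per sample are unknown.

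Summits were placed by the deposited start and offset and compared with every annotated start site of the protein-coding genes of GENCODE vM1 (mm9). For a gene with several summits within 1 kb the strongest was used. A summit counted for every gene in whose window it lay. No test was made, since 2 libraries of 1 condition allow none over samples and genes are not replicates. Shares carry exact Clopper-Pearson 95% intervals. Counting was tested on simulated summits (200 of 200 planted genes recovered). Genes were named by role, by enrichment among members with a peak, and for a peak in 1 list or 1 to 5 kb upstream. The members, lists and bounds were chosen with earlier results of these data known. Alternatives were stricter peaks, other start sites, windows, members, motifs and single lists. Python 3.11.15, numpy 2.4.6, scipy 1.17.1, pandas 2.3.3, pysam 0.24.0 and samtools 1.23.1 were used. Sequences are from mm9, and none is shown from chromosome 18. Some items are not reported here.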

Additional observations from a re-analysis of the deposited data

How the results depend on the processing

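The 8 members with a summit of both lists within 1 kb became 1, and the 9 in the wide window became 2, when the upper 50% of each list by enrichment was used. The median enrichment then became 8.49, the median distance 957.5 bp and the share with GCCNNNGG 100%, all from Rpl24, so fewer peaks account for these. With the 5′ end of each gene alone the median enrichment was 3.55, and it was 3.55 as well with the 5′ end for Rpl24 alone, an alternative chosen after seeing the data, since both leave Rpl24 out. Start sites of coding transcripts gave a median distance of 218 bp, and the peak nearest to the start site 198.5 bp. GCCNNNGGC gave a share of 0%, and a search of 100 bp to each side gave 75%. Each replicate list alone gave 9 members within 1 kb and 10 in the wide window, a median enrichment from 3.51 to 3.60, a median distance from 233 to 270 bp and a share from 44.4% to 66.7%. The 3 members with a C and 4 pyrimidines at the start site became 6 at the first-named coding transcript and 18 with the run placed more loosely, both chosen after seeing the data. Of 14 alternatives for the count within 1 kb, 13 stayed within 1.5 times the reported count. No paired analysis was possible because 1 group alone has peak lists and no result comes from a test. Depth is unknown, so weak peaks missed in a list cannot be told apart from absent ones.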

Other observations

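The 9 cytosolic ribosomal protein genes outside the naming rule gave no peak within 1 kb in either list. Among them Rpsa, whose protein also occurs as a laminin receptor, had its nearest summit 17.2 kb upstream in replicate 1 and 17.1 kb upstream in replicate 2. Fau, which encodes a ubiquitin-like protein fused to a small subunit protein, had it 11.5 kb and 11.6 kb upstream. With these genes added, 8 of 84 had a summit of both lists within 1 kb, and without the 4 paralogs 8 of 71.

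Rpl11 had the most GCCNNNGG matches of any member promoter, 6, and a peak in replicate 1 alone. Its promoter was read at the internal start site nearest to that peak. The window was thus chosen by the peak, and the pairing of matches and peak supports nothing further. The control string CGGNNNCG, of the same base composition as GCCNNNGG, was at none of the 8 member summits in either list and at 24.5% and 25.4% of the summits of other bound start sites. The interval of the members (upper bound 36.9%) held the others' share. In the flanks the control was at 31.25% and 25% for members, and at 17.6% and 17.7% for others. At other start sites the control, too, was thus more frequent at summits than in flanks.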
